A study of Mus musculus with 20 samples.

Results

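Potassium channel genes, taken here as every gene whose annotated symbol starts with Kcn, were followed through tumors, ganglia and sphere cultures of mice that carry a MYCN transgene. Of 18193 annotated genes on an Affymetrix mouse array, 84 had such a symbol, covered by 167 probe sets. A gene's values are those of its brightest probe set, by the mean over the 20 arrays, and 68 of the 84 were bright enough to be tested. By the letters after Kcn, 22 are voltage-gated pore subunits (21 tested) and 9 are modifier subunits that form no channel alone (6 tested). There are 15 inward rectifiers (10 tested), 12 subunits with a pair of pore domains (11 tested) and 15 accessory subunits (11 tested). Another 8 pore subunits, the Kcnma, Kcnn, Kcnt and Kcnu genes, are grouped as calcium- or sodium-activated (7 tested), with Kcnu1 placed by prefix alone. The remaining 3 are noncoding RNAs named after a channel gene, of which 2 were tested.

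Potassium channels let potassium leave or enter the cell and so set the resting potential and end each action potential. In sympathetic neurons the M-current of Kcnq subunits and the A-type current of Kcnd subunits restrain repeated firing, and BK channels built on Kcnma1 shorten the spike. Glial cells carry the inward rectifier Kcnj10, which takes up potassium around neurons, while Kcnk subunits form leak channels open at rest. Amplification of MYCN, which encodes a transcription factor, marks aggressive neuroblastoma, a childhood tumor arising from sympathetic precursors.

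The groups were 2 tumorsphere cultures and 4 tumors of mice with the genotype MYCN Tg hemizygote, 2 tumors of MYCN Tg homozygote mice that also carried Mdk KO, 4 tumors and 2 ganglion samples of MYCN Tg homozygote mice, and 2 neurosphere cultures and 4 ganglion samples of wild-type mice. All transgenic groups had a mixed 129+Ter/SvJcl background and the wild-type (WT) groups 129+Ter/SvJcl. Comparisons of a transgenic with a WT group therefore also differ in background, and transgene and background cannot be told apart there. Mdk KO removes midkine, a secreted growth factor. The sources used here give neither the promoter of the transgene nor ages nor the type of ganglion. Nothing states that replicates are independent animals or cultures, so p-values rest on a spread between samples that may be technical.

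Before the results, several arrays need mention. WT ganglia 1 and 2 stood apart from 3 and 4: the skeletal muscle gene Acta1 had intensities of 1042 and 529 in the first pair, and of 16 and 7.1 in the second. Among the channel genes, Kcnh3 read 463, 552, 74.5 and 53.7 in WT ganglia 1 to 4 and Kcna4 8.46, 8.51, 73.1 and 41.5, so the same pairs were high and low. Acta1 was also high in hemizygous tumor 3 (2390), Mdk KO tumor 2 (1052), homozygous ganglion 2 (867) and homozygous tumor 2 (437). Outside these arrays and WT ganglia 1 and 2, Acta1 read at most 66.1. The part of muscle in the channel results was not tested. Mdk read 42.6 and 35.5 in the Mdk KO tumors, against 268 to 297 in the homozygous tumors. The summed intensity of 7 sympathetic neuron markers was 2695 to 4096 in hemizygous tumors, 6047 to 6972 in homozygous tumors, 14524 to 17090 in homozygous ganglia and 17946 to 35670 in WT ganglia. It was 6667 to 7067 in tumorspheres and 116 to 373 in neurospheres, where Th, the first enzyme of catecholamine synthesis, read 9.72 to 14.1. Th alone read 3100 to 3330 in tumorspheres and 171 to 1770 in hemizygous tumors. Dbh, another of these markers, read 54.1 to 79.7 in tumorspheres and 89.8 to 238 in hemizygous tumors. The ratio of the 3' to the 5' probe set of beta-actin, which rises as RNA breaks down, was 1.96 to 2.69 in hemizygous tumors, 2.44 to 2.81 in homozygous tumors and 4.36 to 9.14 in WT ganglia. The ratio for Gapdh overlapped between these groups, at 2.71 to 3.14 in hemizygous tumors, 2.77 to 3.61 in homozygous tumors and 2.56 to 4.13 in WT ganglia. In these bulk samples fewer cells of a type and less RNA per cell cannot be told apart.

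Values are scaled intensities on a linear scale, and fold changes are differences of group means of log2(intensity + 16), fitted with limma over all 20 arrays with Benjamini-Hochberg adjustment over 15132 genes. "Rose" and "fell" are used for an adjusted p under 0.05. The 40th percentile of intensity lay between 8.58 and 15.8 on the arrays, so single-digit readings are close to or within the dim part of each array, and their order carries little. A probe set's level was not set against that of another gene.

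**Figure D1:**
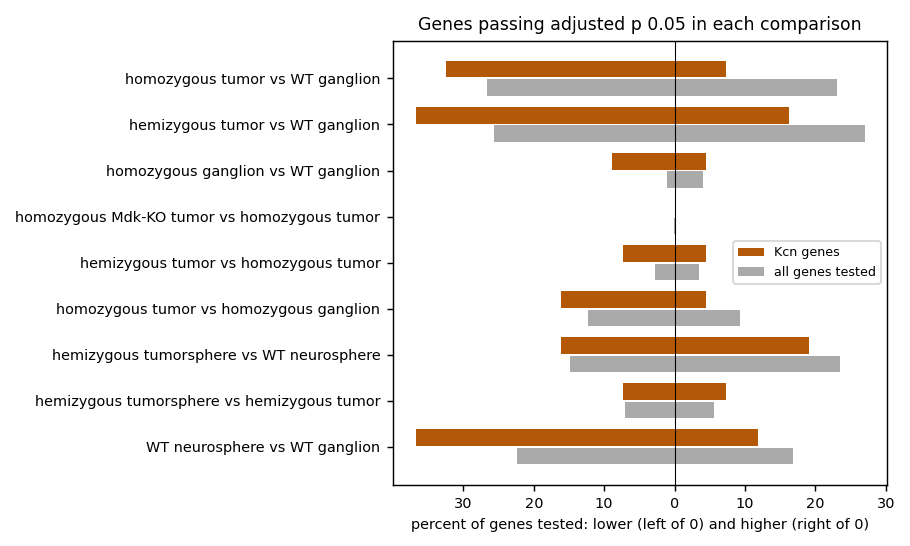
Share of genes that passed the test in each of 9 comparisons, in percent of genes tested, with lower genes left of 0 and higher genes right of 0, for the 68 Kcn genes and for all 15132 genes. In homozygous tumors against WT ganglia, 7.35% of Kcn genes were higher and 32.4% lower, beside 23.1% and 26.6% of all genes.

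Homozygous tumors were set against WT ganglia to ask how the channel genes of tumor tissue differ from those of normal ganglia. Of the 68 members, 22 fell and 5 rose (39.7% called, against 49.8% of all genes tested). By direction, 32.4% of members and 26.6% of all genes were lower, and 7.35% of members and 23.1% of all genes were higher. The members' median log2 fold change was -0.27, and that of all genes -0.12. In hemizygous tumors against the same ganglia 25 members fell and 11 rose (52.9% called, against 52.6% of all genes), with 36.8% of members and 25.6% of all genes lower, and 16.2% and 27% higher. Both comparisons share the WT ganglia. Of the 21 voltage-gated pore subunits, 9 fell and none rose in homozygous tumors, with a median of -0.41, and 13 fell and 1 rose in hemizygous tumors, with a median of -0.93. All 5 fibroblast markers also fell in both tumor groups, with sums of 2065 to 5855 in hemizygous tumors, 3898 to 4690 in homozygous tumors and 14494 to 17256 in WT ganglia. These sums, the neuron sums and the actin ratios moved with the groups, and their part in the result was not tested.

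**Figure D2:**
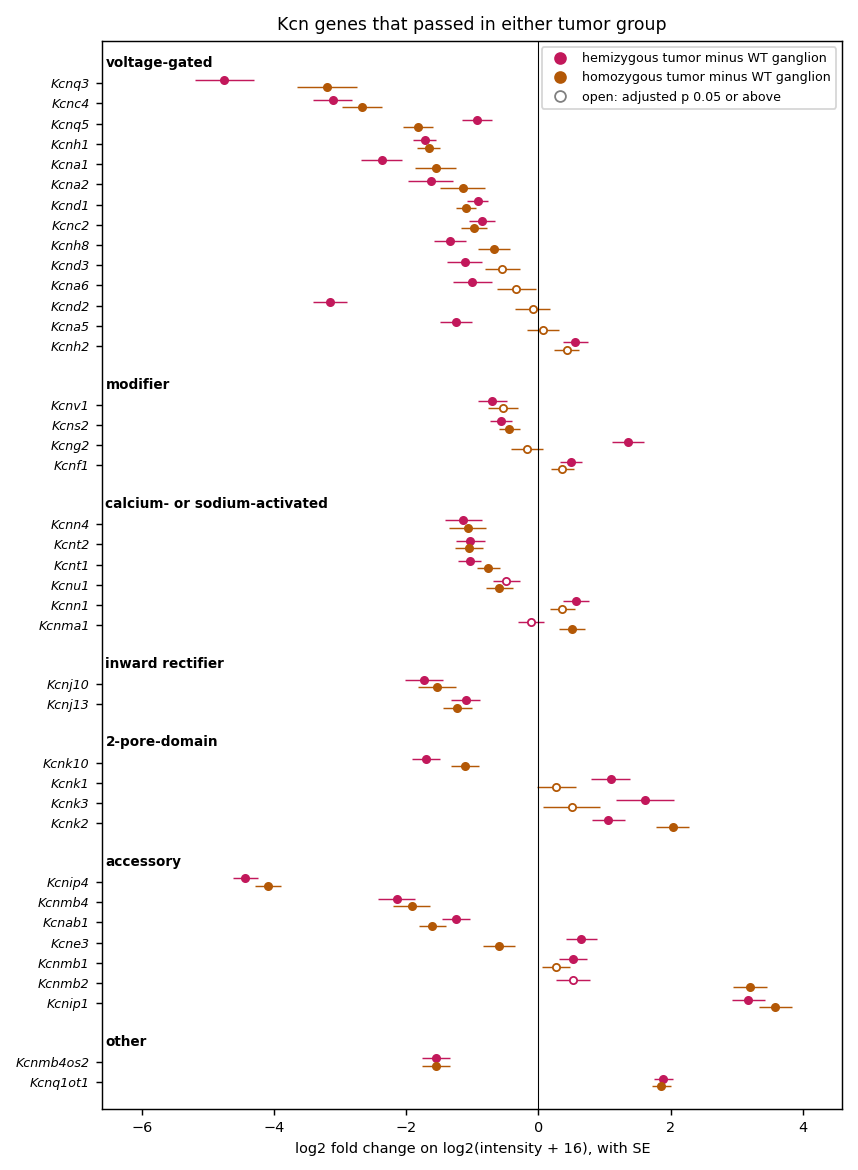
Log2 fold changes with standard errors of the 39 Kcn genes that passed in hemizygous or homozygous tumors against WT ganglia, grouped by kind of subunit. Most voltage-gated subunits lie left of 0, down to -4.75 for Kcnq3, while Kcnip1, Kcnk2 and Kcnq1ot1 lie right of 0 in both tumor groups.

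Kcnq3 and Kcnq5 encode subunits of the M-channel, a slow brake on firing. Kcnq3 read 1.66, 24.8, 3.71 and 23.5 in hemizygous tumors and 91.2, 101, 43.0 and 40.6 in homozygous tumors, against 901, 374, 934 and 857 in WT ganglia. All 8 tumors lay below all 4 ganglia, and the hemizygous tumors were the lowest. The log2 fold change was -4.75 (SE 0.45, limma adjusted p = 8.6e-08) in hemizygous and -3.20 (SE 0.45, adjusted p = 1.2e-05) in homozygous tumors. Kcnq5 read 73.5, 63.0, 76.4 and 95.1 in hemizygous tumors and 38.1, 22.9, 32.7 and 42.8 in homozygous tumors, against 159, 94.7, 269 and 156 in WT ganglia. Here the homozygous tumors were the lower group, at -1.83 (SE 0.23), and the hemizygous tumors were at -0.93 (SE 0.23), with 1 tumor just above the lowest ganglion.

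Among other voltage-gated subunits, Kcnc4, whose channel inactivates quickly, read 10.5, 15.0, 7.01 and 15.1 in hemizygous tumors and 18, 23.2, 21.5 and 23.9 in homozygous tumors, against 239, 110.4, 331 and 279.6 in WT ganglia. No tumor reached a ganglion, with log2 fold changes of -3.12 and -2.67 (SE 0.30 each). Kcna1, an axonal delayed rectifier, read 38.9, 28.8, 3.57 and 8.60 in hemizygous tumors and 39.0, 53.3, 40.8 and 36.5 in homozygous tumors, against 181, 68.7, 227 and 192 in WT ganglia, again without overlap. It fell by 2.37 and 1.55 on the log2 scale (SE 0.31 each), and its other 2 tested probe sets fell too in both tumor groups. Kcna2, its frequent partner, fell by 1.63 in hemizygous and 1.15 in homozygous tumors (SE 0.34 each). Kcnh1, of the ether-a-go-go family, read 5.02, 10.9, 9.48 and 11.2 in hemizygous tumors and 9.83, 9.06, 9.08 and 12.8 in homozygous tumors, against 53.9, 56.5, 107 and 58.2 in WT ganglia. The tumors sat together far below the ganglia, at -1.72 and -1.66 (SE 0.17 each). Kcnh2, the related HERG channel that is followed in many tumor lines, went the other way at 0.56 (SE 0.19, adjusted p = 0.02) in hemizygous tumors, with overlap and a call that was lost without WT ganglion 2 or without hemizygous tumor 1, 2 or 4. In homozygous tumors it was at 0.43 (adjusted p = 0.071). Kcnd3 and Kcna6 fell in hemizygous tumors, to log2 fold changes of -1.12 and -0.997 (SE 0.27 and 0.30), and were at -0.55 and -0.34 in homozygous tumors (adjusted p = 0.099 and 0.36). The Kcnd3 call was lost with replicates 1 and 2 of both groups alone. That of Kcna6, which read 53.2, 47.3, 13.8 and 11.6 in WT ganglia 1 to 4, was lost with replicates 3 and 4 alone. It was also lost in the mean over all Kcna6 probe sets. Kcnc1 was at 0.04 and -0.05, and passed in neither. Kcnd2 fell in hemizygous tumors, at 3.10 to 15.8 against 134 to 253 in WT ganglia, and did not pass in homozygous tumors.

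**Figure D3:**
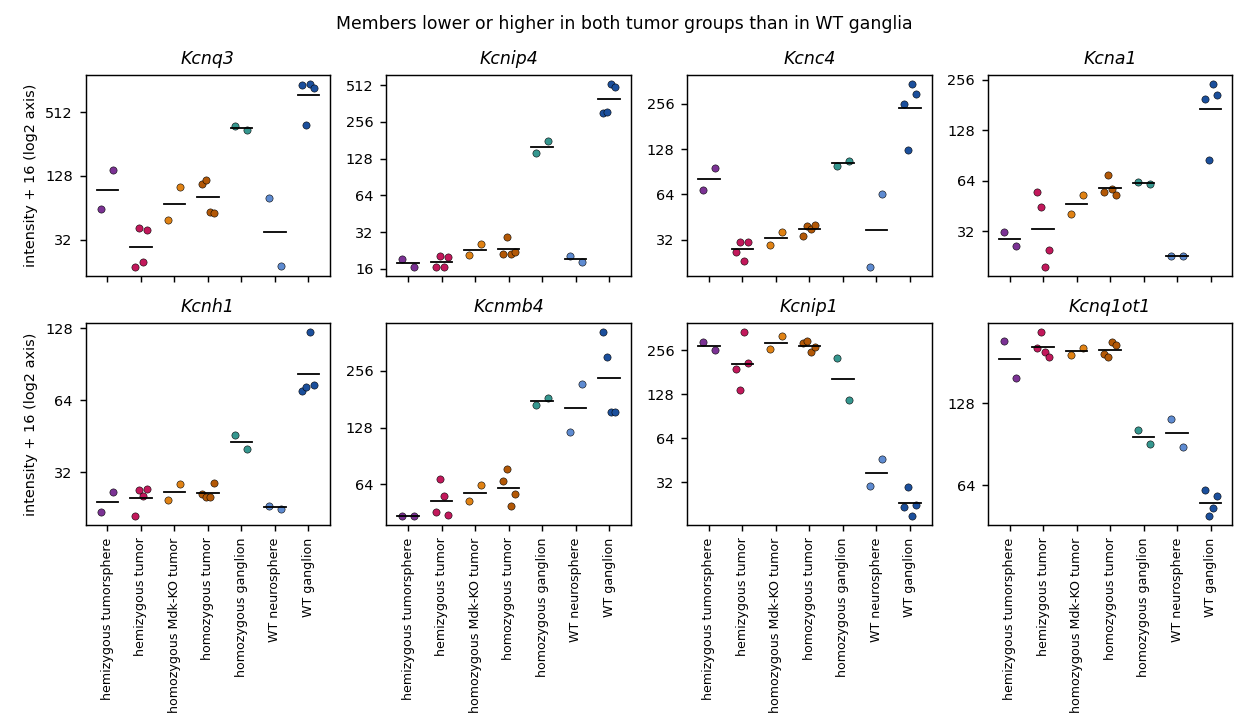
Intensity plus 16, on a log2 axis, of 8 members on every array, with black lines at the mean of the log2 values of each group. Kcnq3, Kcnip4, Kcnc4, Kcna1, Kcnh1 and Kcnmb4 are lower in all 8 hemizygous and homozygous tumors than in WT ganglia, and Kcnip1 and Kcnq1ot1 are higher.

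Accessory subunits lay far from 0 in both directions. Kcnip4, a calcium-binding partner of Kcnd channels, read 0.591, 4.21, 0.538 and 4.15 in hemizygous tumors and 5.20, 12.9, 5.24 and 5.99 in homozygous tumors. Homozygous ganglia read 126 and 163, and WT ganglia 288, 290.2, 509 and 482. The order was tumors, homozygous ganglia and WT ganglia, with no overlap between the 3 kinds. The log2 fold change was -4.43 in hemizygous tumors and -4.09 in homozygous tumors (SE 0.19 each, adjusted p = 2.2e-11 and 7.6e-11), and the other 2 tested probe sets of Kcnip4 fell as well. Kcnip1, a close relative with the same kind of partner, moved the opposite way. It read 173, 121, 323 and 194 in hemizygous tumors, 272, 279.8, 234 and 253 in homozygous tumors and 209 and 100 in homozygous ganglia, against 5.80, 13.9, 2.88 and 6.36 in WT ganglia. Every transgenic sample was far above every WT ganglion, with log2 fold changes of 3.18 and 3.59 (SE 0.25 each) for the tumor groups. Of the other 3 tested Kcnip1 probe sets, 2 rose in both tumor groups and the third, with a mean of 6.53 over the arrays, was at -0.01 and -0.06.

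Among the other accessory subunits, Kcnab1, a cytoplasmic beta subunit of Kcna channels, read 16.4, 24.8, 27.1 and 31.8 in hemizygous tumors and 14.2, 19.1, 15.1 and 14.4 in homozygous tumors, against 70.3, 74.8, 98.7 and 78.9 in WT ganglia. It fell by 1.24 and 1.60 (SE 0.21 each). Kcnab2, its paralog, was at 0.09 in hemizygous tumors and -0.34 in homozygous tumors (adjusted p = 0.75 and 0.18). Kcnmb4, the neuronal beta subunit of BK channels, read 29.9, 52.2, 39.3 and 28.3 in hemizygous tumors and 50.6, 61.3, 33.5 and 40.7 in homozygous tumors, against 392, 285, 139 and 138 in WT ganglia. All tumors were below the lower pair of ganglia, at -2.15 and -1.92 (SE 0.28 each). Kcnmb4os2, a noncoding RNA that runs across the start of Kcnmb4 on the opposite strand in the RefSeq annotation, read 6.07, 7.81, 5.18 and 8.19 in hemizygous tumors and 4.14, 13.1, 11.3 and 1.34 in homozygous tumors, against 74.2, 68.1, 36 and 34.6 in WT ganglia. The same WT ganglia were high and low for both transcripts of this locus, and Kcnmb4os2 fell by 1.55 and 1.54 (SE 0.21 each).

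Kcnmb2, an inactivating beta subunit of BK channels, was high in homozygous samples. It read 25.4, 18.6, 44.2 and 14.2 in hemizygous tumors, 296, 189, 293 and 202 in homozygous tumors, 252 and 165 in homozygous ganglia and 19.9, 14.6, 1.68 and 15.5 in WT ganglia. The homozygous samples were high in tumor and ganglion alike, while hemizygous tumors overlapped the WT ganglia. It rose by 3.20 in homozygous tumors (SE 0.26, adjusted p = 1.4e-08), and hemizygous tumors were at 0.52 (SE 0.26, adjusted p = 0.095). The second Kcnmb2 probe set was at 2.20 in homozygous and 0.35 in hemizygous tumors.

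The pore subunit of those channels, Kcnma1, cannot be given a direction in tumors. Its brightest probe set was at 0.51 (SE 0.20, adjusted p = 0.036) in homozygous tumors against WT ganglia, with overlapping groups, while 2 others passed downward at -1.23 and -0.57, and the mean over all its probe sets was at -0.31. Of the sodium-activated channels, Kcnt1 fell by 1.04 in hemizygous and 0.76 in homozygous tumors (SE 0.17 each) and Kcnt2 was lower at -1.03 and -1.05 (SE 0.22 each). Kcnn4, the intermediate-conductance calcium-activated channel, fell by 1.14 and 1.07 (SE 0.28 each), calls that were lost in the mean over all its probe sets. Kcnn2, a small-conductance channel behind the afterhyperpolarization, did not pass (-0.59 and -0.58, adjusted p = 0.055 and 0.063).

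Of the 10 tested inward rectifiers, 2 fell and none rose in each tumor group, while 25.6% of all genes fell in hemizygous and 26.6% in homozygous tumors. Kcnj10 read 82.3, 64.9, 29.7 and 49.2 in hemizygous tumors and 49.6, 72.0, 55.9 and 80.4 in homozygous tumors, against 201, 118, 313 and 279.7 in WT ganglia. It fell by 1.72 and 1.54 (SE 0.29 each) with no overlap. The sum of 7 Schwann and satellite glia markers was 1020 to 2566 in hemizygous tumors, 2129 to 2644 in homozygous tumors and 9837 to 11078 in WT ganglia, and its part in the fall of Kcnj10 was not tested. Kcnj13, the other member that fell, was at -1.1 and -1.23 (SE 0.22 each). Kcnj3, a pore subunit of G protein-gated channels, was at -0.46 and -0.41, and its partner Kcnj6 at -0.11 and -0.20, none of which passed (adjusted p = 0.11, 0.16, 0.61 and 0.33).

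The leak channels held risers. Kcnk2, the mechanosensitive channel TREK-1, read 104, 68.6, 137 and 72.1 in hemizygous tumors and 200.1, 133, 266 and 208 in homozygous tumors, against 37.6, 19.3, 44.5 and 47.6 in WT ganglia. Every tumor was above every ganglion, at 1.06 and 2.03 (SE 0.26 each). Kcnk10, the close relative TREK-2, fell by 1.70 in hemizygous and 1.11 in homozygous tumors (SE 0.21 each). Kcnk1, the channel TWIK-1, read 141, 115, 154 and 145 in hemizygous tumors against 42.6, 31.2, 63.4 and 107 in WT ganglia, a rise of 1.1 (SE 0.29). Kcnk3, the acid-sensitive channel TASK-1, rose by 1.62 in hemizygous tumors (SE 0.44, adjusted p = 0.0044), although WT ganglion 2 at 145 lay inside the range of those tumors, 120.4 to 211. In homozygous tumors Kcnk1 and Kcnk3 were at 0.27 and 0.50 (adjusted p = 0.46 and 0.35).

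Kcnq1ot1 is a long noncoding RNA made from an intron of Kcnq1, antisense to it, and silences neighbouring genes on the paternal chromosome. It read 188, 216, 181 and 173 in hemizygous tumors, 178, 173, 198 and 192 in homozygous tumors and 85.7 and 75.0 in homozygous ganglia, against 45.4, 33.6, 36.8 and 42.6 in WT ganglia. These tumors and ganglia formed 3 separate levels, with the homozygous ganglia between tumors and WT ganglia. WT neurospheres, which carry no transgene, read 95.6 and 72.2, around the level of the homozygous ganglia. The log2 fold change was 1.89 and 1.86 in hemizygous and homozygous tumors (SE 0.14 each, adjusted p = 5.8e-09 and 9.8e-09). Of its other 5 tested probe sets, 3 passed upward in both tumor groups and none passed downward. Kcnq1 itself was not called in any of the 9 comparisons.

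Ganglia of homozygous mice were set against WT ganglia to ask whether transgenic tissue not labelled as tumor already differs. These ganglia also differ in background, which cannot be told apart from the transgene. Of the 68 members 3 rose and 6 fell (13.2% called, against 5.01% of all genes tested; 3.99% of all genes rose and 1.02% fell). Kcnmb2 rose by 2.98 (SE 0.31, adjusted p = 6.3e-06), Kcnip1 by 2.82 (SE 0.31, adjusted p = 8.6e-06) and Kcnq1ot1 by 0.80 (SE 0.18, adjusted p = 0.011), with the values given above. Kcnab1 read 3.63 and 27.5 in homozygous ganglia against 70.3 to 98.7 in WT ganglia and fell by 1.72 (SE 0.26, adjusted p = 0.00028). Kcna1, at 46.8 and 45.5 against 68.7 to 227, fell by 1.46 (SE 0.38, adjusted p = 0.032), and Kcnip4 by 1.31 (SE 0.24, adjusted p = 0.002). Kcnh1 read 29.6 and 24.1 against 53.9 to 107 and fell by 0.95 (SE 0.21, adjusted p = 0.012). Kcnj10 and Kcnd1 were near the threshold (adjusted p = 0.048 and 0.049). The Kcnq1ot1 call was lost with only the compared arrays, in the mean over all its probe sets and without either homozygous ganglion. Kcnmb2 and Kcnip1 kept their calls under all 18 alternatives, whereas the count of 9 was 5 with a pseudocount of 1, 2 with only the 6 compared arrays, 3 without homozygous ganglion 1, 4 without homozygous ganglion 2 and 15 without WT ganglion 2. With WT ganglia 1 and 2 alone 7 members passed, and with 3 and 4 alone 24 did. Kcnq3, at 362 and 334 in the homozygous ganglia, did not pass (-1.02, adjusted p = 0.29).

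Homozygous tumors were also set against homozygous ganglia, which share the genotype. Here 11 members fell and 3 rose (20.6% called, against 21.6% of all genes tested; 12.3% of all genes fell and 9.35% rose). Kcnip4 fell by 2.78 (SE 0.24, adjusted p = 1.8e-06), Kcnq3 by 2.18 (SE 0.55, adjusted p = 0.0095), Kcnmb4 by 1.52 (SE 0.34, adjusted p = 0.0044), Kcnc4 by 1.46 (SE 0.37, adjusted p = 0.0096) and Kcnmb4os2 by 1.23 (SE 0.26, adjusted p = 0.003). Kcnt2 read 7.02, 10.5, 5.55 and 4.53 in the tumors against 32.9 and 34.4 in the ganglia, a fall of 1.12 (SE 0.26). Kcnk2 rose by 1.34 (SE 0.31, adjusted p = 0.0056), Kcnq1ot1 by 1.06 (SE 0.18, adjusted p = 0.00048) and Kcnh2 by 0.71 (SE 0.23, adjusted p = 0.038). Kcnmb2 and Kcna1, which differed between the ganglia of both genotypes, were not called here (0.22 for Kcnmb2, adjusted p = 0.68). The count of 14 was 7 without homozygous ganglion 1, 2 without homozygous ganglion 2 and 8 without homozygous tumor 3. Kcnip4 and Kcnq1ot1 kept their calls under all 18 alternatives. The sum of neuron markers was 6047 to 6972 in these tumors and 14524 to 17090 in the homozygous ganglia. For glial markers it was 2129 to 2644 and 8901 to 8910, and for fibroblast markers 3898 to 4690 and 13660 to 14775. The part of these cells in the comparison was not tested.

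Hemizygous tumors were set against homozygous tumors, a comparison of tumors that differ in transgene dose. Of the 68 members 5 were lower and 3 higher in hemizygous tumors (11.8% called, against 6.21% of all genes tested; 2.74% of all genes were lower and 3.46% higher). Kcnd2, a pore subunit of the A-type current, read 4.28, 15.8, 5.37 and 3.10 in hemizygous tumors against 219.7, 201, 182 and 113 in homozygous tumors. The gap was wide on every array, at -3.07 on the log2 scale (SE 0.26, adjusted p = 2.7e-06), and both other tested Kcnd2 probe sets fell, by 2.34 and 1.28. Homozygous tumors overlapped WT ganglia, which read 179, 134, 253 and 194 (difference -0.09, adjusted p = 0.8). Kcnmb2 fell by 2.67 (SE 0.26, adjusted p = 1e-05) with the values above. Kcnd2 and Kcnmb2 kept their calls under all 20 alternatives. The tumorspheres, which carry the hemizygous genotype, read 11.5 and 10.4 for Kcnd2 and 29.1 and 29.4 for Kcnmb2, while the Mdk KO tumors, which are homozygous, read 128 and 224 for Kcnd2 and 140.4 and 235 for Kcnmb2. Thus all 6 hemizygous arrays were below all 8 homozygous ones for both genes.

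The 250 bases before the start of 4 of these genes are shown, because Kcnd2 and Kcnmb2 set the tumor genotypes apart, the start of Kcnmb4 lies inside the antisense RNA Kcnmb4os2, which fell with it, and Kcnab1 fell in both tumor groups and holds the E-box CACGTG, a motif bound by MYC family proteins. They are from RefSeq, mouse assembly GRCm38.p6, written 5′ to 3′ on the strand of the gene, with CG pairs and the E-box in capitals.
Kcnd2, chr6:21215096-21215345, plus strand: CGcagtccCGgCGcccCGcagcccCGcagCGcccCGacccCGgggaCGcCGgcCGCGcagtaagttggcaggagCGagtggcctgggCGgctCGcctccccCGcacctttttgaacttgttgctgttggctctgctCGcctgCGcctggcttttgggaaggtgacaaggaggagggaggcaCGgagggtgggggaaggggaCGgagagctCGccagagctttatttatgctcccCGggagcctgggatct
Kcnmb2, chr3:31902453-31902702, plus strand: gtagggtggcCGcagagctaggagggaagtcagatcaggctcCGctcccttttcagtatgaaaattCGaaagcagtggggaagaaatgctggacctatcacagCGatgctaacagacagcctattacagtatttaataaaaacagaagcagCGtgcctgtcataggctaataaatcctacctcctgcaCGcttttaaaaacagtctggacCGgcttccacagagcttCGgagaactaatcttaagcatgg
Kcnmb4, chr10:116473524-116473773, minus strand: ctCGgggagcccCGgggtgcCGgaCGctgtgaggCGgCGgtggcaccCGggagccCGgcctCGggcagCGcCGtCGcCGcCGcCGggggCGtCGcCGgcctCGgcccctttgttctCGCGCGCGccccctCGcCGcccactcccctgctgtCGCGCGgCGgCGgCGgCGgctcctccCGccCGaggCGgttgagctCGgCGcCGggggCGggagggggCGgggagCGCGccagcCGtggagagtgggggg
Kcnab1, middle listed start, chr3:65108764-65109013, plus strand: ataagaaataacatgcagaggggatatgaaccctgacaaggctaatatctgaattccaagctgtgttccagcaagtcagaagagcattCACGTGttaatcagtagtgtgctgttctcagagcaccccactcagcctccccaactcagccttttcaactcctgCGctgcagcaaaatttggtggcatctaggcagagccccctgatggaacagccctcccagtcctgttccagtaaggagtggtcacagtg
Kcnab1, last listed start, chr3:65187853-65188102, plus strand: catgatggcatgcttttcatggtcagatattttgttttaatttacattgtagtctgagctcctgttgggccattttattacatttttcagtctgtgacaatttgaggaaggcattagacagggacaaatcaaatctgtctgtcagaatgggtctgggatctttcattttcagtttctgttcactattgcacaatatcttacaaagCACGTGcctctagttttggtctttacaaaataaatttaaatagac
The windows of Kcnd2 and Kcnmb4 held 22 and 43 CG pairs at a GC content of 68.8% and 83.6%, and that of Kcnmb2 held 8 at 47.2%. The printed Kcnab1 windows, chosen because they hold the E-box, had 2 and 1. The window of its first listed start, at chr3:64948962-64949211, held 6 CG pairs and no E-box. Of 89 windows of 64 Kcn genes, 5 held CACGTG (5.62%), against 1978 of 32851 windows of all genes (6.02%). The motif reads the same on both strands. Its 5 windows belonged to Kcnab1, Kcne4, Kcnj2 and Kcnn4, and a match describes the letters of the window only. Kcnn4 also fell in both tumor groups, and its window is not printed.

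The other members that separated the tumor genotypes had smaller differences. Kcna5, a delayed rectifier, read 39.0, 23.6, 43.8 and 19 in hemizygous tumors against 98.1, 101, 109.5 and 86.9 in homozygous tumors and fell by 1.31 (SE 0.24, adjusted p = 0.0035). Kcng2, a modifier subunit that forms no channel alone, read 42.6, 22.7, 57.7 and 71.2 in hemizygous tumors against 4.69, 2.49, 7.96 and 7.28 in homozygous tumors, a rise of 1.52 (SE 0.24, adjusted p = 0.0011). The tumorspheres read 62.4 and 67.2 for Kcng2, in the range of the hemizygous tumors. WT ganglia read 5.22, 5.93, 22.4 and 3.12 for Kcng2, which rose in hemizygous tumors against them too. Kcne3, an accessory subunit of Kcnq1 and other channels, read 11.6, 13.7, 39.7 and 50.9 against 0.446, 3.60, 2.05 and 0.526, a rise of 1.25 (SE 0.24, adjusted p = 0.0041), with hemizygous tumors 3 and 4 the high pair. For Kcna5, Kcng2 and Kcne3 the groups did not overlap. Kcnq3 (-1.56, adjusted p = 0.047), Kcnk2 (-0.97, adjusted p = 0.03) and Kcnq5 (0.90, adjusted p = 0.026) passed less firmly and lost their calls under 14, 8 and 10 of 20 alternatives. Without hemizygous tumor 4, homozygous tumor 1 or homozygous tumor 3, 5 members passed. The sum of 5 endothelial and pericyte markers was 1384 to 2463 in hemizygous and 566 to 695 in homozygous tumors, and the part of these cells in the differences was not tested.

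**Figure D4:**
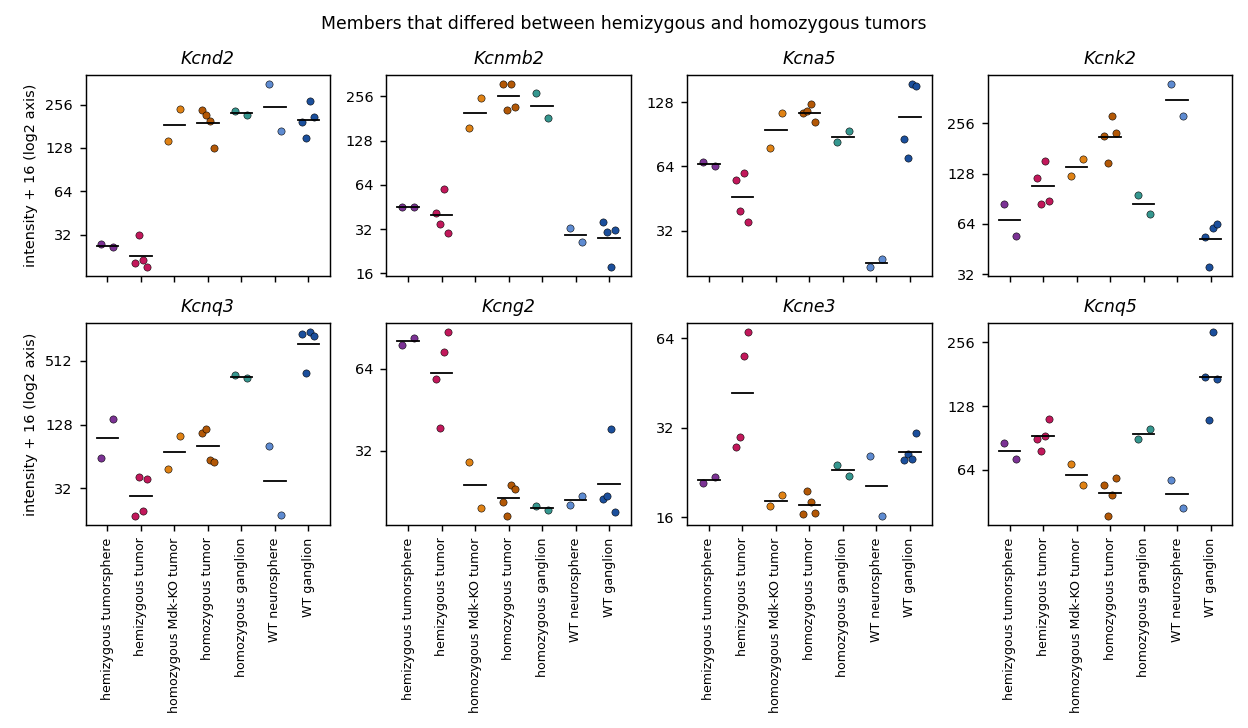
Intensity plus 16, on a log2 axis, of the 8 members that differed between hemizygous and homozygous tumors, on every array, with black lines at the mean of the log2 values of each group. For Kcnd2 and Kcnmb2 the 4 tumors and 2 tumorspheres of hemizygous mice lie below all 8 homozygous arrays, and for Kcng2 the same 6 arrays have the highest values.

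The comparison of Mdk KO with homozygous tumors asks what midkine loss changes. No member passed in limma's test (0 of 68, against 0.00661% of all genes tested), and the smallest adjusted p was 1. An unadjusted p under 0.05 was found for 2 of the 68 members and for 200 of 15132 genes (1.32%). The members with the smallest p, none of which passed, were Kcnab1 (2.36 and 5.90 against 14.2 to 19.1, log2 -0.66), Kcnk4 (0.925 and 1.01 against 5.26 to 14.3, log2 -0.52) and Kcnk7 (4.62 and 2.91 against 6.86 to 14.2, log2 -0.50), all at dim intensities. Fold changes of members ran from -0.66 to 0.41, and their standard errors from 0.18 to 0.69 with a median of 0.28, so that differences of that size could not be detected.

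Neurospheres of wild-type mice, which are floating cultures, were set against WT ganglia. Of the 68 members 25 were lower and 8 higher (48.5% called, against 39.2% of all genes tested), and 36.8% of members and 22.4% of all genes were lower, while 16.8% of all genes were higher. Neurosphere 2 stood apart, with a Gapdh ratio of 11.5, against at most 4.49 on every other array. The actin ratio was 7.77 and 3.78 in neurospheres 1 and 2. Without neurosphere 1, 27 members passed, and without neurosphere 2, 29. Kcnd3, a pore subunit of the A-type current, read 830.4 and 1022 in neurospheres against 54.2, 34.6, 120.4 and 142 in WT ganglia, a rise of 3.33 (SE 0.33, adjusted p = 2.4e-07) that its second probe set also showed at 3.14. Kcnk2 read 426 and 268 against 19.3 to 47.6 and rose by 2.77 (SE 0.31, adjusted p = 1.2e-06). Kcnj10 read 1003 and 449.9 against 118 to 313 and rose by 1.58 (SE 0.35, adjusted p = 0.0015), but not without neurosphere 1. Kcna2 read 263 and 675 against 93.8 to 211, a rise of 1.42 (SE 0.41, adjusted p = 0.011) that was lost without neurosphere 2. The Kcna2 call was also lost with a pseudocount of 1, with only the compared arrays and in the mean over all its probe sets. Kcnc1 rose by 1.32 (SE 0.36), carried by neurosphere 2 at 242, since neurosphere 1 at 58.5 lay within the ganglia. Kcnip3, a calcium-binding subunit of Kcnd channels, read 48.1 and 41.7 against 1.47 to 24.0 and rose by 1.27 (SE 0.27). Of 34 other probe sets of the members called here, 29 had the sign of the brightest and 5 the opposite sign, 1 of them passing. The same count was 18 and 8 of 26 in tumorspheres against neurospheres, with 0 opposite ones passing. It was 23 and 6 of 29 in homozygous tumors against WT ganglia, with 2 passing, and 30 and 3 of 33 in hemizygous tumors, with 0 passing.

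The members that were low in neurospheres included several that also fell in tumors. Kcnip4 read 4.25 and 2.19 in neurospheres and fell by 4.36 (SE 0.24), Kcnq3 read 63.6 and 1.97 and fell by 4.29 (SE 0.55), and Kcna1 read 6.72 and 6.67 and fell by 2.91 (SE 0.38). Kcnc4 fell by 2.70 (SE 0.37), Kcna5 by 2.28 (SE 0.30) and Kcnh3, of the ELK branch, by 2.32 (SE 0.69, adjusted p = 0.012), although Kcnh3 was not called with WT ganglia 3 and 4 alone. The neurospheres, the tumors and the homozygous ganglia were all compared with the same WT ganglia. Of the 7 neuron markers all fell in neurospheres, as did 5 of the 7 Schwann and satellite glia markers (none rose), with a glial sum of 5598 to 9470 in neurospheres and 9837 to 11078 in WT ganglia. All 5 fibroblast markers fell too, and the part of these cells was not tested.

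Tumorspheres of hemizygous mice were set against these neurospheres, so that both sides were cultures. Here 13 members were higher and 11 lower in tumorspheres (35.3% called, against 38.4% of all genes tested; 23.5% of all genes were higher and 14.9% lower). Kcnj10 read 9.37 and 6.73 in tumorspheres against 1003 and 449.9 in neurospheres and fell by 4.84 (SE 0.41, adjusted p = 5e-08). Kcna2, at 8.57 and 13.7, fell by 4.02 (SE 0.48), Kcnd3, at 53.9 and 52.2, by 3.76 (SE 0.38), and Kcnd2, at 11.5 and 10.4 against 342 and 152, by 3.18 (SE 0.37). Kcnk2 read 68.7 and 38.3 and fell by 2.39 (SE 0.36), and Kcnmb4 fell by 1.90 (SE 0.39). Kcnd2 and Kcnd3 were thus low in tumorspheres, and Kcnd1, the third pore subunit of the A-type current, was higher at 36.7 and 46.1 against 17.7 and 12.0 (0.90, SE 0.22). The Kcnd1 call was lost in the mean over all its probe sets.

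The members higher in tumorspheres were another set of channels. Kcnk3 read 81.8 and 185 in tumorspheres against 2.20 and 1.90 in neurospheres and rose by 2.96 (SE 0.62, adjusted p = 0.00095). Kcnip1 read 275 and 241 against 14.3 and 29.8 and rose by 2.87 (SE 0.35), Kcng2 rose by 1.94 (SE 0.34) and Kcna5 by 1.54 (SE 0.34). Kcnu1, which forms a sperm potassium channel in mice, read 85.1 and 123 against 24.2 and 15.0 and rose by 1.75 (SE 0.29). Kcnma1 read 242 and 250.3 against 56.9 and 73.6 and rose by 1.70 (SE 0.28, adjusted p = 9.3e-05), and 3 of its other 4 tested probe sets rose too. The sum of neuron markers was 6667 to 7067 in tumorspheres and 116 to 373 in neurospheres. That of glial markers was 1365 to 1574 in tumorspheres and 5598 to 9470 in neurospheres, where Fabp7 alone read 4620 to 8580. Of the 7 neuron markers 5 rose and 0 fell, and of the 7 glial markers 4 fell and 2 rose. Mbp and Pmp22 read higher in tumorspheres, at 294 to 342 and 1040 to 1190, against 23.9 to 26.5 and 278 to 576. The actin ratio was 2.34 to 2.64 in tumorspheres and 3.78 to 7.77 in neurospheres. The part of these differences was not tested. Without neurosphere 1, 22 members passed, and without neurosphere 2, 28.

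**Figure D5:**
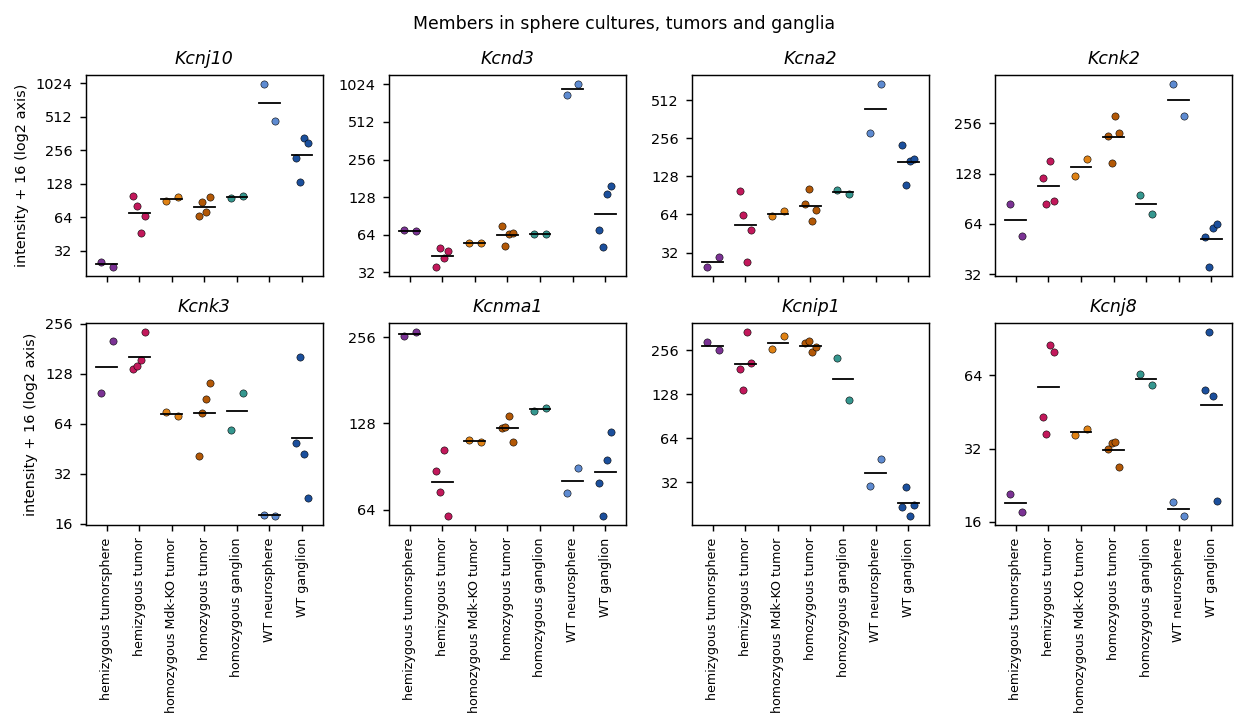
Intensity plus 16, on a log2 axis, of 8 members on every array, with black lines at the mean of the log2 values of each group. Kcnj10, Kcnd3, Kcna2 and Kcnk2 are highest in the 2 WT neurospheres, Kcnma1 is highest in the 2 hemizygous tumorspheres, and Kcnk3 is lowest in the neurospheres.

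Tumorspheres were also set against hemizygous tumors, the tissue of the same genotype. Of the 68 members 5 were higher and 5 lower (14.7% called, against 12.6% of all genes tested; 5.61% of all genes were higher and 6.99% lower). Kcnma1 rose most firmly, at 242 and 250.3 in tumorspheres against 71.4, 57.7, 87.7 and 44.9 in the tumors (log2 1.72, SE 0.24, adjusted p = 9e-05), and kept its call under all 18 alternatives. Kcnc4 read 52.6 and 79.9 against 7.01 to 15.1 and rose by 1.55 (SE 0.37, adjusted p = 0.0092). Kcnq3 read 46.0 and 129.6 against 1.66 to 24.8 and rose by 1.80 (SE 0.55, adjusted p = 0.039), a call lost under 12 of 18 alternatives. Kcnu1 and Kcnd1 rose by 0.99 and 0.64 (SE 0.25 and 0.19). Kcnj8, the pore of ATP-sensitive channels in pericytes and smooth muscle, read 4.78 and 1.56 in tumorspheres against 27.0, 20.9, 69.2 and 63.6 in the tumors and fell by 1.58 (SE 0.43, adjusted p = 0.02). Abcc9, the sulfonylurea receptor that pairs with it, fell by 2.39 (SE 0.30, adjusted p = 3.7e-05). All 5 endothelial and pericyte markers fell, with a sum of 60 to 98 in tumorspheres and 1384 to 2463 in the tumors, where Pecam1 and Cdh5 read 1.32 at most in tumorspheres. The sums of 6 macrophage markers were 41 to 81 and 849 to 2302, and those of 5 fibroblast markers 31 to 43 and 2065 to 5855, and the part of these cells was not tested. Kcnj10, Kcnk6, Kcnab1 and Kcne3 were the other members that fell, by 0.97 to 1.54. Only 4 of the 10 calls held without tumorsphere 1 and 1, that of Kcnma1, without tumorsphere 2.

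Genes that work with potassium channels were followed in a list of 34, of which 26 were measured and 24 tested. In homozygous tumors against WT ganglia 9 fell and 3 rose, and in hemizygous tumors 10 fell and 3 rose, with medians of -0.39 and -0.27. Of all genes, 26.6% fell and 23.1% rose in homozygous tumors, and 25.6% fell and 27% rose in hemizygous tumors. Dpp6 and Dpp10, membrane partners that tune Kcnd channels, fell in hemizygous (-1.45 and -1.64) and homozygous tumors (-1.08 and -1.54), with standard errors of 0.19 for Dpp6 and 0.31 for Dpp10. Lgi1, a secreted protein that acts on Kcna channels, read 21.8, 9.05, 9.29 and 9.44 in hemizygous tumors and 23.0, 29.4, 26.4 and 32.1 in homozygous tumors, against 185, 87.7, 145 and 182 in WT ganglia, and was lower at -2.52 and -1.88 (SE 0.22 each). Atp1b1, a beta subunit of the sodium pump, was lower at -2.4 and -1.68 (SE 0.25 each). Slc12a7, a potassium chloride cotransporter, rose by 1.49 and 1.37 (SE 0.19 each). Cntnap2, which clusters Kcna channels along axons, was the single list member that differed between tumor genotypes, at 392, 349, 378 and 126 in hemizygous against 634, 870, 814 and 828 in homozygous tumors (-1.40, SE 0.37, adjusted p = 0.032). No list member passed between Mdk KO and homozygous tumors, and Atp1b2 alone passed between the ganglia (-1.38, adjusted p = 0.028). Rest, a repressor of neuronal genes, fell by 0.72 and 1.04 in hemizygous and homozygous tumors (adjusted p = 0.0063 and 0.00037).

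Across all 9 comparisons 51 of the 68 tested members passed at least once (75%, against 76.1% of all genes tested) and 17 never did. The genes that never passed include Kcnn2 and Kcnj6 as well as Kcnj9, Kcnj11, Kcnq1, Kcnip2 and 6 of the 11 tested Kcnk genes. The 16 members that were not tested include Kcnn3, Kcnj2, Kcnj4, Kcnj5, Kcnk12 and Kcns1. They had readings of at most 20.1 on any array.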

How the data were processed

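Gene expression was measured on 20 Affymetrix mouse arrays, from 40 ng of total RNA after a two-cycle amplification, per the labels' protocols. The deposited values are intensities per probe set on a linear scale, scaled by the authors so that the trimmed mean of each array is 100, as the values themselves show; which software summarised the probe sets is not stated. They were not normalized further.

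Of 45101 probe sets, 34945 had 1 gene symbol in the platform annotation (932 several, 9160 none). A gene's brightest probe set, by mean log2(intensity + 16), stood for it and was kept if above its array's 40th percentile on at least 2 arrays, and fitted in R 4.3.3 by limma 3.58.1 with eBayes moderation (7 group means, 9 contrasts, two-sided, Benjamini-Hochberg over 15132 genes, threshold 0.05). Alternatives were other normalizations, pseudocounts, filters, probe set rules, designs and left-out arrays. The fit was tested on simulated data. The text names, per comparison, up to 6 called members with the highest and up to 6 with the lowest fold change, the 3 with the smallest p where fewer than 3 passed, and members of a set list of well-known channels. The members and lists were chosen with earlier results of these data known.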

Additional observations from a re-analysis of the deposited data

Results flagged for a closer look

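On single arrays, 6 of 102 groups of 4 samples over 34 members had 1 sample far from the other 3, about the 1 in 20 groups that chance flags. Kcnh2 read 39 in hemizygous tumor 3, while the other hemizygous tumors read 66.6 to 70.6. Among homozygous tumors, Kcnip4 read 12.9 in tumor 2 (5.20 to 5.99 in the others), Kcnd1 18.6 in tumor 4 (15.5 to 15.8 in the others) and Kcnk7 6.86 in tumor 4 (13.4 to 14.2 in the others). Among WT ganglia, Kcnq3 read 374 in ganglion 2 (857 to 934 in the others) and Kcnh1 107 in ganglion 3 (53.9 to 58.2 in the others).

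The difference between hemizygous and homozygous tumors, which limma tested directly, passed for 8 members. It was -3.07 for Kcnd2, -2.67 for Kcnmb2, -1.56 for Kcnq3, -1.31 for Kcna5 and -0.97 for Kcnk2, and 0.90 for Kcnq5, 1.25 for Kcne3 and 1.52 for Kcng2, on the log2 scale.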

How the results depend on the processing

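Of 161 called values of members, 153 kept their call with quantile normalization, 155 with median centring, 142 with a pseudocount of 1, 141 with a pseudocount of 64 and 124 with only the compared arrays. Over all left-out single arrays 880 of 1060 calls were kept, 180 were lost and none changed sign. With only the compared arrays, 18 members passed in neurospheres against WT ganglia (33 in the fit over all arrays), 15 in hemizygous against homozygous tumors (8), 2 in homozygous against WT ganglia (9) and 24 in homozygous tumors against homozygous ganglia (14). With other pseudocounts, 5 passed in tumorspheres against hemizygous tumors at 64 (10) and 5 between the ganglia at 1. With pairs of replicates alone, chosen after seeing the data, hemizygous against homozygous tumors gave 2 (replicates 1 and 2) and 4 (3 and 4), tumorspheres against hemizygous tumors 3 and 4 gave 4, homozygous ganglia against WT ganglia 3 and 4 gave 24, and homozygous tumors 1 and 2, and 3 and 4, against homozygous ganglia gave 3 and 9. Leaving out 1 array gave 23 to 32 in homozygous tumors against WT ganglia, 33 to 36 in hemizygous tumors, 3 to 15 in homozygous ganglia, 5 to 7 between tumor genotypes, 2 to 12 in homozygous tumors against homozygous ganglia, 19 to 28 in tumorspheres against neurospheres, 1 to 10 in tumorspheres against hemizygous tumors, 27 to 34 in neurospheres and 0 for Mdk KO. Deviations of same-numbered samples from their group means correlated at -0.318 to 0.275 over 48 pairs, with a median of -0.003 and 7 above 0.1. The correlations were 0.071 to 0.254 for homozygous tumors with WT ganglia and -0.309 to -0.134 for homozygous with hemizygous tumors. Between groups of 2 arrays both numbers give the same value by construction. A replicate block gave 5 between the ganglia, 7 between tumor genotypes and 11 in homozygous tumors against homozygous ganglia. In the mean over all probe sets Kcnma1 was at -0.31 (adjusted p = 0.14) and Kcnc1 at 0.55 (adjusted p = 0.03) in homozygous tumors against WT ganglia, where their brightest probe sets gave 0.51 and -0.05. Kcnj8 was at -0.88 (adjusted p = 0.0056) in hemizygous tumors against WT ganglia with replicates 1 and 2 alone, and at 0.24 with all. The cause of these changes was not tested. Groups of 2 arrays limit the precision, and fold changes of members near the 40th percentile are understated by the pseudocount.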
